A study of Rattus norvegicus with 288 samples.

Results

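The early liver response to temsirolimus was followed in rats killed 1 h or 6 h after dosing. All liver arrays of those times were taken, which is 64 of the 288 arrays of the series, with 32 livers from temsirolimus rats and 32 from rats given its vehicle. At each time 16 temsirolimus livers were set against 16 TEM vehicle livers, and the 32 livers at 24 h served only for a comparison of times. The animals were male Sprague-Dawley rats with an indwelling cannula in the femoral vein, and each rat gave bone marrow, heart and liver. Temsirolimus was injected at 0.3 mg/kg into the vein, or its vehicle was injected, and an oral second agent followed. The second agent was sunitinib at 5 mg/kg, sorafenib at 25 mg/kg, sterile water (the vehicle of sunitinib) or F68/PG/PEG400 (the vehicle of sorafenib). Each of these 4 second agents was given to 4 temsirolimus rats and 4 TEM vehicle rats per time, so that every temsirolimus contrast below is a mean over the 4 second agents, and an oral drug was present in equal numbers of rats on both sides. Liver RNA came from the left lateral and median lobes and was hybridised to Affymetrix rat genome arrays. The 1 h and the 6 h livers came from different rats.

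Temsirolimus is an ester of rapamycin. It binds the small cytosolic protein FKBP12, the product of Fkbp1a, and the complex docks onto the kinase mTOR and inhibits mTOR complex 1, which couples amino acids, insulin and energy supply to growth. In growing cells mTOR complex 1 promotes the synthesis of ribosomes, transfer RNA charging, nucleotide synthesis and sterol synthesis, and it restrains autophagy. The liver is a large site of protein and sterol synthesis.

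Values are log2 signals of a probe set, a group of short probes that reads 1 transcript, and each change is the temsirolimus mean minus the TEM vehicle mean with its standard error (SE). A gene was called at an adjusted p under 0.05 in limma, by Benjamini-Hochberg over the 14218 genes tested. An unadjusted p under 0.05 is given as a description and is no call. The albumin gene Alb lay between 15.22 and 15.297 in the 64 livers, Apoa1 between 14.36 and 14.75 and Cps1 between 13.85 and 14.24. The heart muscle genes Myh6 and Tnnt2 lay between 5.13 and 5.65 and between 4.39 and 5.09. None of the 15 hepatocyte markers measured was called at either time, with median changes of -0.004 at 1 h and -0.001 at 6 h. The ratio of 3′ to 5′ signal of Actb, a sign of RNA quality, was 1.76 to 2.76 in temsirolimus livers and 1.77 to 3.04 in TEM vehicle livers at 1 h, and 1.82 to 2.81 in temsirolimus livers against 1.73 to 1.97 in TEM vehicle livers at 6 h. At 6 h the medians were 1.95 and 1.89, and the 2.81 was the liver of temsirolimus rat 6M64. The part of this ratio in the results was not tested.

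Neither of the drug's binding partners was called at either time. Fkbp1a lay at 11.64, 11.82 and 11.92 (lowest, median and highest) in temsirolimus livers and at 11.63, 11.85 and 12.07 in TEM vehicle livers at 1 h, a change of -0.02 ± 0.04 (SE, n = 16 each, limma adjusted p = 0.989). At 6 h it lay at 11.59, 11.91 and 12.10 in temsirolimus livers and at 11.64, 11.85 and 12.27 in TEM vehicle livers. Mtor, the kinase, had changes of 0.03 ± 0.04 at 1 h and 0.06 ± 0.04 at 6 h, with limma adjusted p = 0.978 and 0.718. Of 39 genes measured for the mTOR complexes and their regulators, 0 were called by limma at either time, whereas 3 were lower at 1 h (7.69%, against 3.05% of all genes), 4 were lower at 6 h (10.3%, against 5.39%) and 1 was higher at each time with an unadjusted p under 0.05. Among the lower ones, Rheb, the small GTPase that activates mTOR complex 1, had changes of -0.06 ± 0.02 and -0.07 ± 0.02, and Eif4e, the cap-binding translation factor, changes of -0.10 ± 0.04 and -0.12 ± 0.04. Over all 39 genes the median change was -0.014 at 1 h and -0.005 at 6 h. Above 0 lay 15 genes at 1 h and 18 at 6 h, with highest changes of 0.14 and 0.21.

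At 1 h no single gene passed the test, but ribosome biogenesis genes lay below the TEM vehicle level almost without exception. Over all genes, 0 of 14218 were called (0%) by limma, and 770 (5.42%) had an unadjusted p under 0.05, of which 337 (2.37%) were higher and 433 (3.05%) lower in temsirolimus livers. The smallest adjusted p was 0.308. At 6 h limma called 10 genes (0.0703%), 2 higher (0.0141%) and 8 lower (0.0563%), and 1343 (9.45%) had an unadjusted p under 0.05, 576 (4.05%) higher and 767 (5.39%) lower. With 1 rat left out, the count of calls at 6 h ran from 1 (without temsirolimus rats 5M57 or 6M64 or TEM vehicle rat 7M76) to 74 (without TEM vehicle rat 7M75). The median change over all genes was 0.0001 at 1 h and -0.0003 at 6 h, and 49.9% and 50.3% of genes lay below 0. An unadjusted p under 0.05 at both times was found for 184 genes, which is 23.9% of those at 1 h and 13.7% of those at 6 h, and 173 of them had the same sign at both times, 143 lower and 30 higher.

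The ribosome biogenesis list held factors of RNA polymerase I, of the small nucleolar particles that modify ribosomal RNA and of the assembly of the ribosomal subunits. Of its 37 genes 36 were measured. At 1 h all 36 lay below 0, with a median change of -0.08 and a range of -0.29 to -0.01, and 14 (38.9%, against 3.05% of all genes) were lower with an unadjusted p under 0.05. At 6 h 35 of 36 lay below 0, with a median of -0.13, and 21 (58.3%, against 5.39% of all genes) were lower with an unadjusted p under 0.05. Nop16 was called, and Rrn3, a polymerase I initiation factor at 0.02 ± 0.03, was the gene above 0. The genes with an unadjusted p under 0.05 and a lower level at both times numbered 11. The list was chosen with earlier results of these data known, and its genes share rats, so that its counts are a description beside those of all genes.

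**Figure D1:**
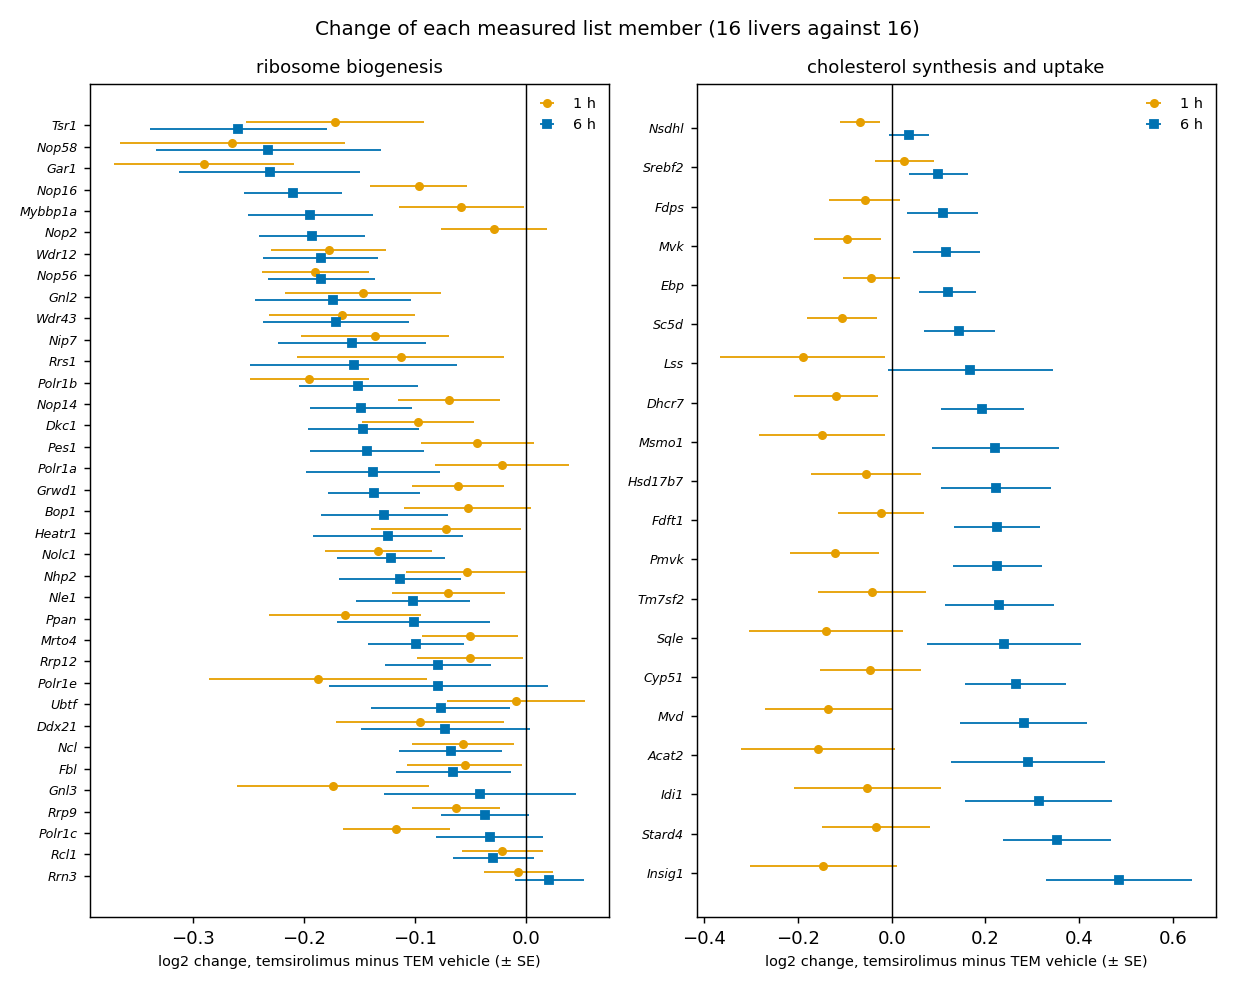
Log2 change (temsirolimus minus TEM vehicle, points, with SE as bars) of each of the 36 ribosome biogenesis genes and the 20 cholesterol genes measured, at 1 h and 6 h. All 36 ribosome biogenesis points at 1 h and 35 at 6 h lie left of 0, and the cholesterol points lie left of 0 for 19 genes at 1 h and right of 0 for all 20 at 6 h.

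The mean log2 level of these 36 genes was taken in each liver. At 1 h it was 8.76, 8.84 and 9.06 (lowest, median and highest) in temsirolimus livers, against 8.81, 8.996 and 9.20 in TEM vehicle livers, and 13 of 16 temsirolimus livers lay below the TEM vehicle median. At 6 h it was 8.80, 8.91 and 9.03 in temsirolimus livers, against 8.86, 9.01 and 9.47 in TEM vehicle livers, with 15 of 16 below the TEM vehicle median. The groups overlapped at both times, and 5 temsirolimus livers at 1 h and 4 at 6 h lay below the lowest TEM vehicle liver. At 24 h the level was 8.96, 9.10 and 9.29 in temsirolimus livers, against 8.22, 9.10 and 9.502 in TEM vehicle livers, and the median change of the genes was 0.07. The lowest of these is TEM vehicle rat 7M78, given sunitinib, and without it the TEM vehicle livers lay at 8.90, 9.12 and 9.502 and the median change was 0.04. In liver homogenate, fewer cells of a type and less RNA per cell cannot be told apart.

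**Figure D2:**
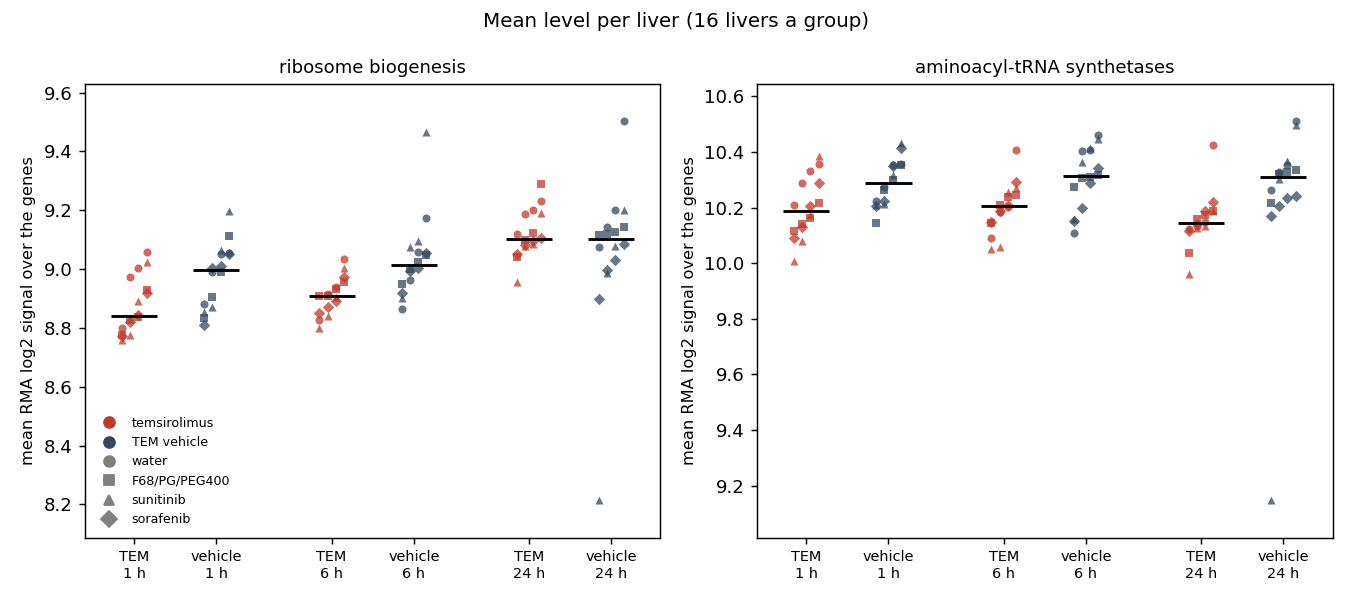
Mean log2 signal of the ribosome biogenesis genes (36 measured) and the aminoacyl-tRNA synthetase genes (19 measured) in each liver, temsirolimus left of TEM vehicle at 1, 6 and 24 h. Each marker is a liver, its shape the second agent, and the black bar the median of 16 livers; the ribosome biogenesis medians are 8.84 and 8.996 at 1 h, 8.91 and 9.01 at 6 h, and 9.10 and 9.10 at 24 h.

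The difference had the same sign with every second agent. The mean ribosome biogenesis level at 1 h was 8.96 ± 0.11 in temsirolimus and 8.99 ± 0.08 in TEM vehicle livers with water (SD, n = 4 each), a difference of -0.04. It was lower by 0.12 with F68/PG/PEG400, at 8.84 ± 0.06 against 8.96 ± 0.12, and the differences with sunitinib and sorafenib were -0.13 each. At 6 h the differences were -0.09 with water, -0.08 with F68/PG/PEG400, -0.25 with sunitinib and -0.10 with sorafenib. The sunitinib difference held the liver with the highest level, TEM vehicle rat 7M76 at 9.47. Without that rat the median change of the 36 genes at 6 h was -0.11, and 18 genes had an unadjusted p under 0.05. Rats of each group fell into 2 array sets by the plate numbers in the array names. The median change was -0.07 and -0.13 in the sets at 1 h and -0.09 and -0.18 at 6 h.

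Of the list, Nop56 and Polr1b were among the 10 genes with the smallest p at 1 h. Nop56, a core protein of the box C/D particles that guide ribosomal RNA methylation, lay at 9.68, 9.87 and 10.12 in temsirolimus livers, against 9.88, 10.04 and 10.34 in TEM vehicle livers at 1 h. There 10 of 16 temsirolimus livers lay below the lowest TEM vehicle liver, with a change of -0.19 ± 0.05 that did not pass (limma adjusted p = 0.519). At 6 h Nop56 lay at 9.65, 9.86 and 9.95 in temsirolimus livers, against 9.82, 10.00 and 10.53 in TEM vehicle livers, and all 16 temsirolimus livers lay below the TEM vehicle median (-0.18 ± 0.05, limma adjusted p = 0.11). Its partner Nop58 had changes of -0.26 ± 0.10 at 1 h and -0.23 ± 0.10 at 6 h, and Gar1, of the box H/ACA particles that guide pseudouridylation, changes of -0.29 ± 0.08 and -0.23 ± 0.08. Fbl, the methyltransferase of the box C/D particles, had changes of -0.06 ± 0.05 and -0.07 ± 0.05.

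Polr1b, the second-largest subunit of RNA polymerase I, lay at 7.61, 7.94 and 8.17 in temsirolimus livers, against 7.94, 8.13 and 8.31 in TEM vehicle livers at 1 h, with 7 of 16 temsirolimus livers below the lowest TEM vehicle liver (-0.20 ± 0.05, limma adjusted p = 0.598). Its change at 6 h was -0.15 ± 0.05. The largest subunit, Polr1a, had -0.02 ± 0.06 at 1 h and -0.14 ± 0.06 at 6 h, and Ubtf, the upstream binding factor of the ribosomal RNA genes, -0.01 ± 0.06 and -0.08 ± 0.06. Among factors of the large subunit, Nop2, a ribosomal RNA methyltransferase, had -0.03 ± 0.05 and -0.19 ± 0.05, and Pes1, which with Bop1 and Wdr12 forms the PeBoW complex, had -0.04 ± 0.05 and -0.14 ± 0.05. Wdr12 itself had -0.18 ± 0.05 and -0.19 ± 0.05, and Bop1 -0.05 ± 0.06 and -0.13 ± 0.06. None of these genes was called, and the difference between times was called for none of the 36. Of 9 list genes with further probe sets, the 14 further probe sets lay below 0 in 13 cases at 1 h and in 11 at 6 h.

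The promoters of the list are shown because its members had the same sign together. The E-box CACGTG, which reads the same on both strands and is bound by MYC and other basic helix-loop-helix factors, was searched from 250 bases before to 50 bases after the annotated start in RefSeq GRCr8. It was found in 10 of the 32 ribosome biogenesis genes that matched the table (31.25%) and in 5 of 17 aminoacyl-tRNA synthetase genes (29.4%), against 6.65% of 27457 promoters in all and 8.91% of 11734 promoters of genes tested. The members with and without a match had median changes of -0.06 and -0.10 at 1 h and of -0.12 and -0.12 at 6 h. A match is a description of the letters and not of binding. Capitals mark the E-box. Pes1 has 1 match, which begins 50 bases before the start, and Mybbp1a, a nucleolar protein that binds polymerase I factors, has 2. Apex1 and Nop16, both called at 6 h, have 3 matches and 0 matches.
Pes1 (chr14:83074096-83074395, + strand): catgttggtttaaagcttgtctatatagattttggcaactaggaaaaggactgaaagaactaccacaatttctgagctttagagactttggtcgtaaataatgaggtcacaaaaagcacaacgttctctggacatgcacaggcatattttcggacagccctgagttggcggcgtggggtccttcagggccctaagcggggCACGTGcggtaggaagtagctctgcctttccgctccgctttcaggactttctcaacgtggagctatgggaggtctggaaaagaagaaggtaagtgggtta
Mybbp1a (chr10:57555208-57555507, + strand): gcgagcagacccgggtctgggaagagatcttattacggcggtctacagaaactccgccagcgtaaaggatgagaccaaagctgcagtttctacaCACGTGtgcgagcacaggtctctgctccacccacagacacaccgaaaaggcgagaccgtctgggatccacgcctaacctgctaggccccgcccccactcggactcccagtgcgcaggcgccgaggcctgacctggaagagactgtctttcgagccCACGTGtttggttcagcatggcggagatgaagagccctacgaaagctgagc
Apex1 (chr15:26617976-26618275, + strand): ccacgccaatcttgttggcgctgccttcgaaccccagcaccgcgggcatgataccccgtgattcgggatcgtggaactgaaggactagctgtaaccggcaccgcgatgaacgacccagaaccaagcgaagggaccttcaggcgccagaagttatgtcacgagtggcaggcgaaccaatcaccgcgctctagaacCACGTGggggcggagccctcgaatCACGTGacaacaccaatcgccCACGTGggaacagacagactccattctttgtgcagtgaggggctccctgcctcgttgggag
Nop16 (chr17:10027808-10028107, + strand): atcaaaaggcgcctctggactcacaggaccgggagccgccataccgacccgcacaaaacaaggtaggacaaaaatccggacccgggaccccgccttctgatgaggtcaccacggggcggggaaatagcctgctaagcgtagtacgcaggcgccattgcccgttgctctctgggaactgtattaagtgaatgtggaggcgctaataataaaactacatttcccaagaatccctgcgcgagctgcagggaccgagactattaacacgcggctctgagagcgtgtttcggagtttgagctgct

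The aminoacyl-tRNA synthetases attach amino acids to their transfer RNAs, and most of their genes also lay below 0. Of 19 aminoacyl-tRNA synthetase genes measured, 18 lay below 0 at 1 h (median -0.08) and 6 (31.6%, against 3.05% of all genes) had a lower level with an unadjusted p under 0.05. At 6 h 16 lay below 0 (median -0.12), with 12 lower (63.2%, against 5.39%) and 1 higher (5.26%, against 4.05%) at an unadjusted p under 0.05, and none was called. Their mean level at 6 h was 10.05, 10.21 and 10.41 in temsirolimus livers, against 10.11, 10.31 and 10.46 in TEM vehicle livers, and 15 of 16 temsirolimus livers lay below the TEM vehicle median. At 1 h 11 of 16 did. Nars1, for asparagine, had changes of -0.20 ± 0.06 at 1 h and -0.19 ± 0.06 at 6 h, Hars1, for histidine, -0.19 ± 0.08 and -0.25 ± 0.08, and Aars1, for alanine, -0.10 ± 0.05 and -0.17 ± 0.05. Qars1, for glutamine, was the gene with a higher level, at 0.00 ± 0.04 and 0.08 ± 0.04. At 1 h the difference in mean level was -0.006 with water, and it lay between -0.11 and -0.13 with the other second agents, and at 6 h it lay between -0.04 and -0.19. With array set 1 the median change at 6 h was -0.02 and with array set 2 it was -0.23.

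Of 20 genes measured for nucleotide and one-carbon synthesis, none was called. The median change was -0.06 at 1 h and -0.10 at 6 h, with 2 genes at 1 h (10%, against 3.05% of all genes) and 7 at 6 h (35%, against 5.39%) lower at an unadjusted p under 0.05 and 0 higher. Ppat, the enzyme of the first committed step of purine synthesis, had the smallest p of all genes at 1 h. It lay at 9.07, 9.46 and 9.74 in temsirolimus livers, against 9.40, 9.76 and 9.98 in TEM vehicle livers, and all 16 temsirolimus livers lay below the TEM vehicle median (-0.27 ± 0.06, limma adjusted p = 0.308). The change had the same sign with all 4 second agents, from -0.15 with water to -0.35 with sunitinib. At 6 h Ppat lay at 9.11, 9.56 and 9.77 in temsirolimus livers, against 9.36, 9.77 and 10.04 in TEM vehicle livers (-0.20 ± 0.06, limma adjusted p = 0.186). Umps, of pyrimidine synthesis, had -0.05 ± 0.06 at 1 h and -0.23 ± 0.06 at 6 h, and Shmt1, a serine hydroxymethyltransferase, -0.04 ± 0.03 and -0.12 ± 0.03.

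The measured genes of the ribosomal proteins and elongation factors lay close to 0. Of 40 genes in the list only 20 were measured. Of these 0 were called by limma at either time, and 0 at 1 h and 1 at 6 h had an unadjusted p under 0.05. Their changes ran from -0.05 to 0.01 at 1 h and from -0.06 to 0.05 at 6 h, with medians of -0.03 and 0.01, and 18 of 20 lay below 0 at 1 h and 8 of 20 at 6 h. Among 28 lysosome and autophagy genes the medians were 0.02 and -0.02, and limma called 0. With an unadjusted p under 0.05, 2 were higher (7.14%, against 2.37% of all genes) and 1 was lower at 1 h (3.57%, against 3.05%), and 3 were lower at 6 h (10.7%, against 5.39%).

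Of the other genes with the smallest p at 1 h, none passed. Noct, a deadenylase-family protein with a daily rhythm, had the widest values, at 6.35, 6.87 and 9.0 in temsirolimus livers, against 6.90, 8.01 and 9.80 in TEM vehicle livers. The groups overlapped: 8 of 16 temsirolimus livers lay below the lowest TEM vehicle liver and 3 above the TEM vehicle median (-0.91 ± 0.21, limma adjusted p = 0.308), and at 6 h the change was -0.02 ± 0.21. Spp1, osteopontin, lay at 6.68, 7.17 and 7.79 in temsirolimus livers, against 7.26, 7.55 and 7.97 in TEM vehicle livers at 1 h, with 10 of 16 below the lowest TEM vehicle liver (-0.35 ± 0.09). Ackr3, a scavenging chemokine receptor, had -0.31 ± 0.07, which ran from 0.09 with water to -0.81 with sorafenib. Slc1a4, a neutral amino acid transporter, had -0.40 ± 0.10, and Psmd5, a chaperone of proteasome assembly, -0.16 ± 0.04. Smad7, the inhibitory Smad, had 0.24 ± 0.05, and Dnaja4, an Hsp40 cochaperone, 0.22 ± 0.05. Further, dimmer probe sets had 0.06 ± 0.05 and 0.06 ± 0.05 for Smad7 and 0.07 ± 0.07 for Dnaja4. At 6 h the changes of Spp1, Ackr3, Slc1a4, Smad7 and Dnaja4 lay between -0.03 and 0.07.

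At 6 h the 10 genes called changed by 0.13 to 0.36 on the log2 scale. Aimp2, a scaffold protein of the multi-tRNA synthetase complex, fell. It lay at 8.97, 9.05 and 9.25 in temsirolimus livers, against 8.93, 9.33 and 9.59 in TEM vehicle livers (-0.24 ± 0.04, limma adjusted p = 0.00785). The ranges overlapped, and all 16 temsirolimus livers lay below the TEM vehicle median. Nop16, a nucleolar factor of the large ribosomal subunit, fell, at 9.07, 9.24 and 9.39 in temsirolimus livers, against 9.15, 9.42 and 9.86 in TEM vehicle livers (-0.21 ± 0.04, limma adjusted p = 0.0296), again with all 16 below the TEM vehicle median. Mrpl49, a protein of the large mitochondrial ribosomal subunit, fell, at 8.55, 8.74 and 9.05 in temsirolimus livers, against 8.80, 8.91 and 9.39 in TEM vehicle livers (-0.24 ± 0.05, limma adjusted p = 0.0378). For Mrpl49 9 of 16 temsirolimus livers lay below the lowest TEM vehicle liver.

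**Figure D3:**
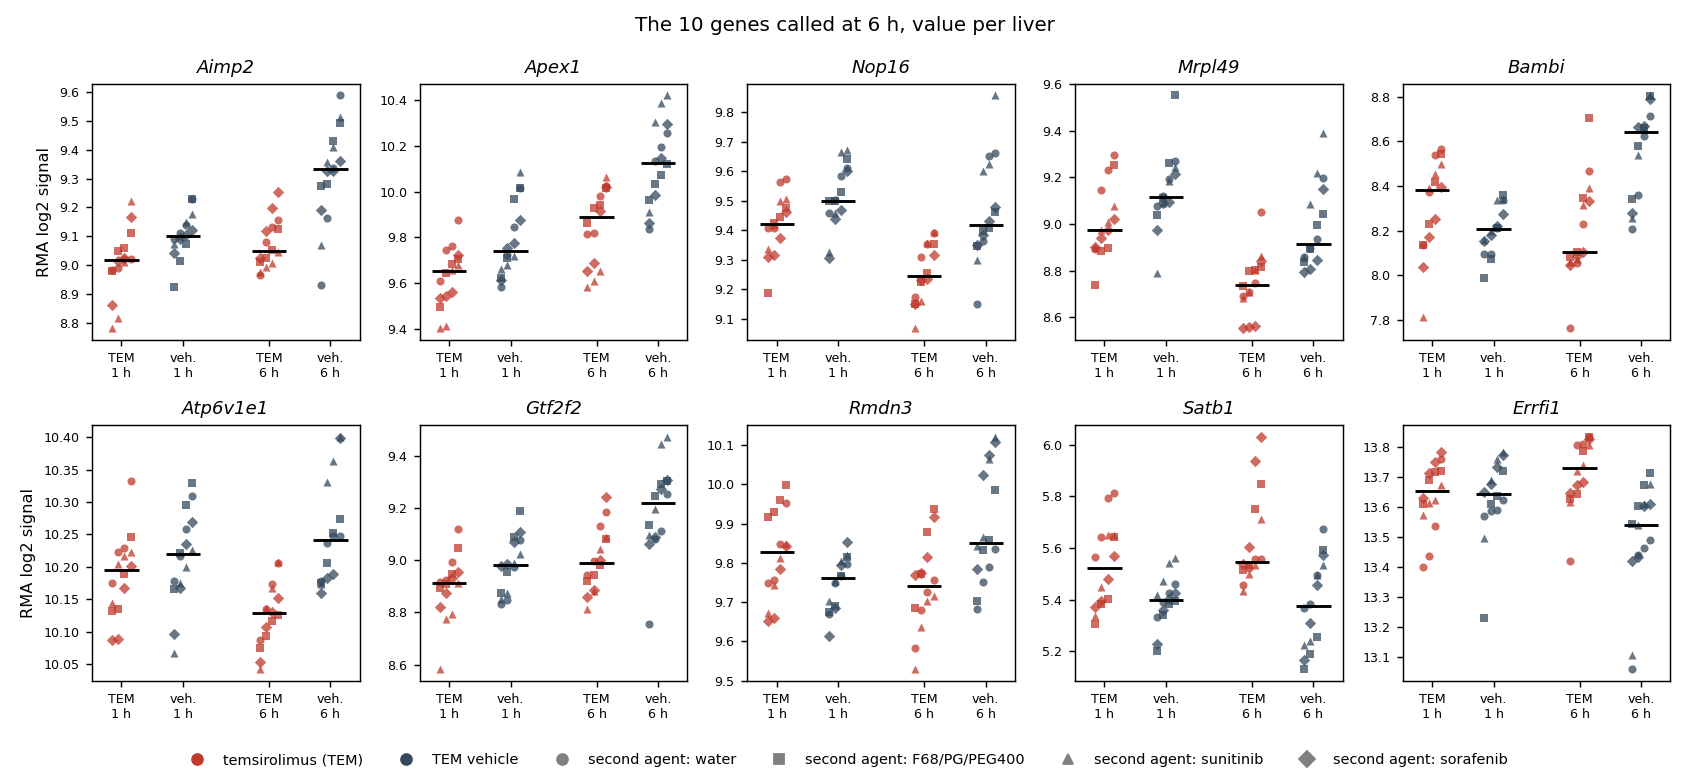
Log2 signal of the 10 genes called at 6 h in each of the 64 livers, temsirolimus left of TEM vehicle at 1 h and at 6 h, with the median of 16 livers as a bar. Atp6v1e1 shows the least overlap at 6 h, with 12 of 16 temsirolimus livers below the lowest TEM vehicle liver.

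Apex1, an endonuclease of base excision repair, fell, at 9.58, 9.89 and 10.07 in temsirolimus livers, against 9.84, 10.13 and 10.42 in TEM vehicle livers at 6 h (-0.27 ± 0.05, limma adjusted p = 0.0273), with 7 of 16 below the lowest TEM vehicle liver. A further, dimmer probe set of Apex1 (mean log2 5.95) had -0.05 ± 0.05 at 6 h. Further probe sets of the called genes Mrpl49 and Satb1 had -0.17 ± 0.05 and 0.24 ± 0.06. Gtf2f2, the small subunit of the general transcription factor TFIIF, fell, at 8.81, 8.99 and 9.24 in temsirolimus livers, against 8.75, 9.22 and 9.47 in TEM vehicle livers (-0.20 ± 0.04, limma adjusted p = 0.0495). Its change was 0.01 with water and ran from -0.19 to -0.35 with the other second agents, whereas Apex1 lay below 0 with all 4. Atp6v1e1, a subunit of the proton pump that acidifies lysosomes, fell, at 10.04, 10.13 and 10.21 in temsirolimus livers, against 10.16, 10.24 and 10.40 in TEM vehicle livers (-0.13 ± 0.03, limma adjusted p = 0.0273). It had the least overlap of the 10 genes, with 12 of 16 temsirolimus livers below the lowest TEM vehicle liver.

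Bambi, a pseudoreceptor that dampens TGF-beta signals, fell the most, at 7.76, 8.10 and 8.70 in temsirolimus livers, against 8.21, 8.64 and 8.81 in TEM vehicle livers at 6 h (-0.36 ± 0.07, limma adjusted p = 0.0273). The change was -0.29 to -0.46 across the 4 second agents, and 9 of 16 temsirolimus livers lay below the lowest TEM vehicle liver. At 1 h Bambi lay at 7.81, 8.38 and 8.56 in temsirolimus livers, against 7.99, 8.21 and 8.36 in TEM vehicle livers (0.11 ± 0.07). Rmdn3, a protein of the outer mitochondrial membrane that contacts the endoplasmic reticulum, fell, at 9.53, 9.74 and 9.94 in temsirolimus livers, against 9.68, 9.85 and 10.12 in TEM vehicle livers (-0.15 ± 0.03, limma adjusted p = 0.0296), after 0.07 ± 0.03 at 1 h. Its change at 6 h ran from -0.25 to -0.05 over 11 other settings of the fit. In the limma F test across second agents at 6 h Rmdn3 had an unadjusted p = 0.00817 and was not called (adjusted p = 0.677). Bambi and Rmdn3 are the called genes whose values had opposite signs at 1 h and 6 h, and the other 8 had the same sign. At 1 h 6 of the 10 had an unadjusted p under 0.05, against 5.42% of all genes. Rmdn3, with the opposite sign, was among the 6.

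The pair of genes that rose were Satb1 and Errfi1. Satb1, a chromatin organiser known from lymphocytes, lay at 5.43, 5.55 and 6.03 in temsirolimus livers, against 5.13, 5.38 and 5.67 in TEM vehicle livers at 6 h (0.25 ± 0.05, limma adjusted p = 0.0273). All 16 temsirolimus livers lay above the TEM vehicle median, and the change ran from 0.05 with water to 0.40 with sorafenib. Satb1 was dim, with a mean log2 signal of 5.48, against 5.13 to 5.65 for the heart muscle gene Myh6. Errfi1, a feedback inhibitor of the EGF receptor that is also in the list of glucocorticoid-responsive genes, lay at 13.42, 13.73 and 13.84 in temsirolimus livers, against 13.06, 13.54 and 13.71 in TEM vehicle livers (0.22 ± 0.05, limma adjusted p = 0.0416). There 9 of 16 temsirolimus livers lay above the highest TEM vehicle liver, and at 1 h the change was 0.01 ± 0.05. Of the 32 fits that leave out 1 of the livers at 6 h, Aimp2 was called in 32, Bambi in 28, Atp6v1e1 in 25, Apex1 and Satb1 in 24, Nop16 and Rmdn3 in 21, Errfi1 in 15, Mrpl49 in 14 and Gtf2f2 in 10. Of 11 other settings, Aimp2 and Atp6v1e1 were called in 6, Apex1, Bambi, Errfi1, Mrpl49 and Nop16 in 5, Rmdn3 in 4, Satb1 in 3 and Gtf2f2 in 2. None of the 10 was called with the 32 livers at 6 h alone, with rats given oral vehicles alone, with rats given an oral drug alone or in array set 1, and only Apex1 was in the fit of 96 livers.

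Cholesterol genes had opposite signs at the 2 times, without a call at either. Of 20 genes measured for cholesterol synthesis and uptake, 19 lay below 0 at 1 h (median -0.08, 0 with an unadjusted p under 0.05 in limma). At 6 h all 20 lay above 0 (median 0.22), and 7 (35%, against 4.05% of all genes) were higher with an unadjusted p under 0.05. Insig1, which retains the sterol sensor SCAP in the endoplasmic reticulum, had -0.15 ± 0.16 at 1 h and 0.48 ± 0.16 at 6 h, and Stard4, a sterol carrier, -0.03 ± 0.12 and 0.35 ± 0.12. Cyp51, the lanosterol demethylase, had -0.05 ± 0.11 and 0.26 ± 0.11, and Srebf2, the sterol-responsive transcription factor, 0.03 ± 0.06 and 0.10 ± 0.06. Further, dimmer probe sets at 6 h had 0.07 ± 0.11 and 0.03 ± 0.04 for Stard4, 0.31 ± 0.11 for Cyp51 and -0.04 ± 0.04 for Srebf2. The sterol element TCACNCCAC was found on either strand in 0 of the 16 cholesterol promoters that matched the table and in 1.13% of all promoters. Some other lists also lay mostly below 0 at 1 h, such as 26 of 29 cell proliferation genes and 13 of 14 NRF2 targets (medians -0.09 each). Of 19 fatty acid synthesis genes measured, 17 lay below 0 at 1 h (median -0.08) and 14 above 0 at 6 h (median 0.07).

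The mean level of the 20 genes was 11.29, 11.59 and 11.90 in temsirolimus livers, against 10.08, 11.45 and 11.78 in TEM vehicle livers, and 12 of 16 temsirolimus livers lay above the TEM vehicle median. The lowest liver, at 10.08, is TEM vehicle rat 7M76, given sunitinib. Without it the median change was 0.11, all 20 genes lay above 0, and 2 had an unadjusted p under 0.05, whereas without TEM vehicle rat 7M75 the median was 0.26 and 12 had. At 1 h the level was 10.96, 11.29 and 11.49 in temsirolimus livers, against 10.87, 11.36 and 11.69 in TEM vehicle livers. The difference of the means at 6 h was 0.17 with water, 0.23 with F68/PG/PEG400, 0.32 with sunitinib (with rat 7M76) and 0.14 with sorafenib, and at 1 h it was 0.06 with water, -0.17 with F68/PG/PEG400, -0.22 with sunitinib and -0.02 with sorafenib.

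**Figure D4:**
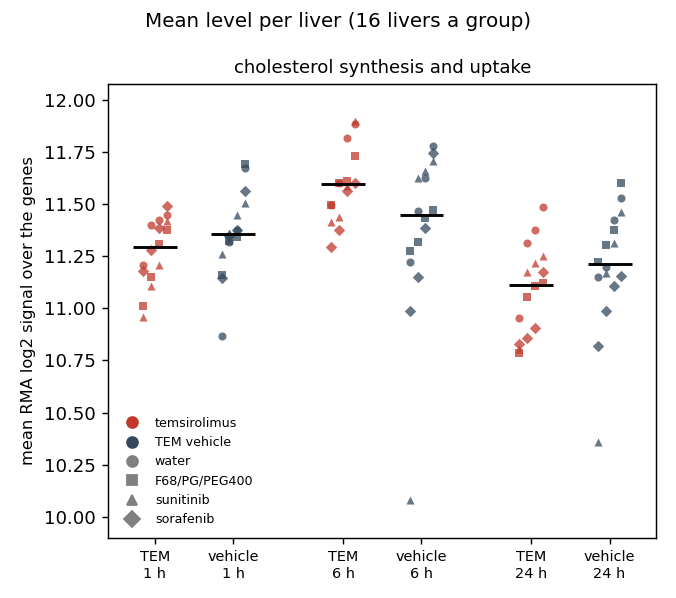
Mean log2 signal of the 20 cholesterol genes in each liver, temsirolimus left of TEM vehicle at 1, 6 and 24 h, with markers by second agent and the median of 16 livers as a black bar. At 6 h the medians are 11.59 and 11.45, and a single TEM vehicle liver given sunitinib lies at 10.08.

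Single genes of other lists stood out by their unadjusted p only and were chosen after their values were seen. Pdk4, a kinase that spares glucose in fasting, had 0.56 ± 0.16 at 6 h and -0.06 ± 0.16 at 1 h, and Pck1, of gluconeogenesis, 0.28 ± 0.11 and 0.00 ± 0.11. Of 23 genes measured for FOXO, insulin and fasting, 10 lay below 0 at 6 h, with a median of 0.03 and a lowest change of -0.63. In that list 2 were higher (8.70%, against 4.05% of all genes) and 1 was lower (4.35%, against 5.39%) at an unadjusted p under 0.05. Klf10, a glucose-responsive factor, had 0.44 ± 0.15 at 1 h and -0.31 ± 0.15 at 6 h. The immediate early genes Jun and Dusp6 had -0.30 ± 0.11 and -0.38 ± 0.13 at 1 h, and Ccn2 had 0.53 ± 0.16 at 6 h. Of 29 immediate early and ERK genes, 17 lay below 0 at 1 h, with a median of -0.01 and a highest change of 0.29. At an unadjusted p under 0.05, 2 were lower (6.90%, against 3.05% of all genes) and 1 was higher (3.45%, against 2.37%) at 1 h. At 6 h 2 were lower (6.90%, against 5.39%) and 1 was higher (3.45%, against 4.05%). Psph, of serine synthesis, had -0.19 ± 0.08 at 1 h and -0.25 ± 0.08 at 6 h. Of the 24 lists of processes, only the ribosome biogenesis and the glucocorticoid-responsive lists held a called gene at either time, 1 each (Nop16 and Errfi1) at 6 h.

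Markers of red blood cells lay mostly above 0 at 6 h. Of 9 measured, 8 lay above 0 and 4 (44.4%, against 4.05% of all genes) were higher with an unadjusted p under 0.05, with none called; Ahsp, which stabilises alpha globin, had 0.37 ± 0.11 and Alas2, of haem synthesis, 0.24 ± 0.10. Their mean level was 8.15, 8.27 and 8.52 in temsirolimus livers, against 7.89, 8.19 and 8.45 in TEM vehicle livers, and at 1 h the medians were 8.34 in both groups. Hbb, for beta globin, had 0.06 ± 0.03. Their part in the results at 6 h was not tested.

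**Figure D5:**
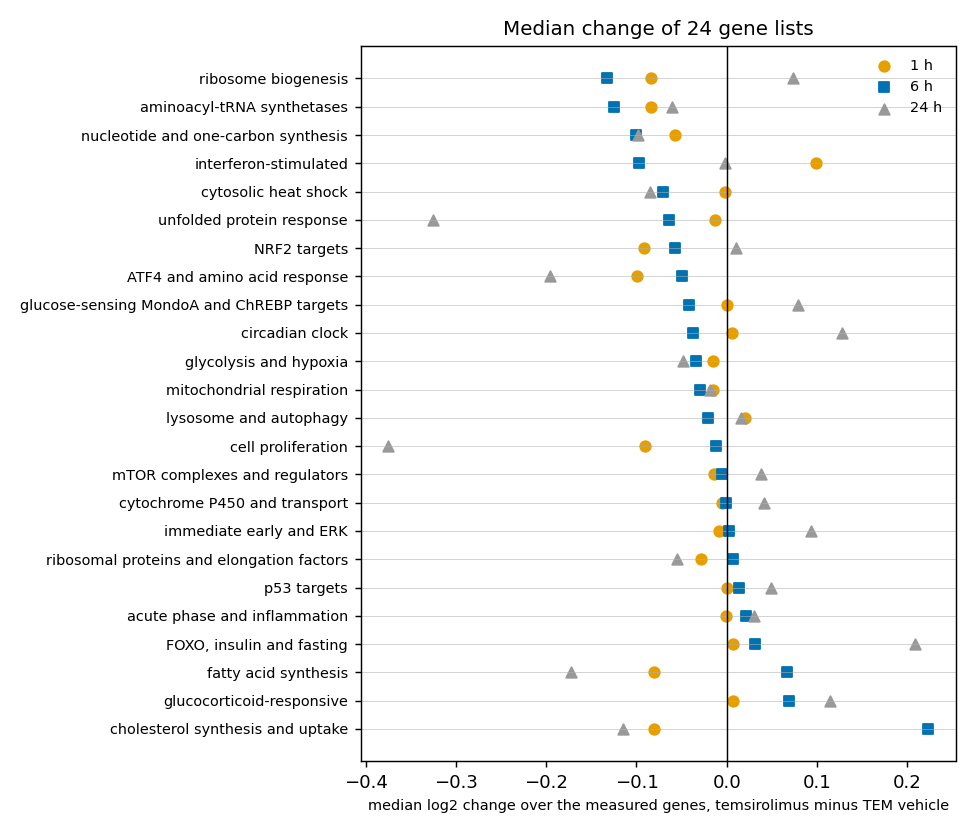
Median log2 change (temsirolimus minus TEM vehicle) over the measured genes of each of 24 process lists at 1, 6 and 24 h, ordered by the value at 6 h. Ribosome biogenesis has medians of -0.08, -0.13 and 0.07 (0.04 at 24 h without TEM vehicle rat 7M78), and cholesterol synthesis and uptake -0.08, 0.22 and -0.12.

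The change at 6 h was then set against the change at 1 h gene by gene. Limma called 0 of 14218 differences between the times (0%), and 530 (3.73%) had an unadjusted p under 0.05. The smallest adjusted p was 0.0896, for Rmdn3 with a difference of -0.23 ± 0.04, and Bambi had -0.47 ± 0.10 (limma adjusted p = 0.156). Of the cholesterol genes 8 had an unadjusted p under 0.05, all higher at 6 h, with a median difference of 0.31 (against 1.72% of all genes higher), and of the ribosome biogenesis genes 1 had, with a median difference of -0.02. Cholesterol genes were not alone in this. Of 17 interferon-stimulated genes measured, 7 had an unadjusted p under 0.05, 0 of them higher at 6 h, with a median difference of -0.09. The cholesterol median at 6 h depended on single rats, at 0.11 without TEM vehicle rat 7M76 and 0.26 without 7M75. The difference between the times was not taken for the list without these rats.

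Whether the temsirolimus change depended on the second agent was asked with an F test over the 4 agents. At 1 h limma called 0 genes (0%), with 1296 (9.12%) at an unadjusted p under 0.05, and at 6 h it called 2 (0.0141%), with 919 (6.46%) at an unadjusted p under 0.05. Angpt2, an endothelial ligand of the receptor Tie2, was called at 6 h (limma adjusted p = 0.0159). With sunitinib it lay at 6.39, 6.84, 6.92 and 7.17 in temsirolimus livers, against 5.51, 6.22, 6.38 and 6.47 in TEM vehicle livers, a change of 0.69 ± 0.15. With sorafenib it lay at 6.34, 6.38, 6.49 and 6.88 in temsirolimus livers, against 7.05, 7.14, 7.20 and 7.48 in TEM vehicle livers, a change of -0.70 ± 0.15. The sorafenib groups did not overlap, the sunitinib groups overlapped by 1 liver, and the changes were -0.10 ± 0.15 with water and 0.08 ± 0.15 with F68/PG/PEG400.

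Ugp2, which makes UDP-glucose for glycogen, was the other gene called (limma adjusted p = 0.0472). With water it lay at 13.17, 13.18, 13.29 and 13.43 in temsirolimus livers, against 12.35, 12.69, 12.72 and 12.99 in TEM vehicle livers, without overlap, a change of 0.58 ± 0.11. With sunitinib it lay at 12.95, 13.14, 13.22 and 13.27 in temsirolimus livers, against 13.34, 13.39, 13.42 and 13.59 in TEM vehicle livers, also without overlap, a change of -0.29 ± 0.11. Both calls depended on single rats: Angpt2 and Ugp2 were both lost without temsirolimus rats 6M64, 6M63 or 5M52, or without TEM vehicle rats 7M76 or 8M88.

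The early changes differed from those at 24 h. In a fit of all 96 livers, the change at 1 h differed from that at 24 h for 147 genes (1.03%), 64 with a higher (0.450%) and 83 with a lower value (0.584%) at 1 h, and the change at 6 h differed for 116 genes (0.816%), 71 higher (0.499%) and 45 lower (0.317%) at 6 h. At 24 h itself 1693 genes (11.9%) were called, 1128 higher and 565 lower. The liver of TEM vehicle rat 7M78 stood apart at 24 h, with an array median of 6.96, against 6.82 to 6.91 in the other 95 livers. Without it 384 differences were called at 1 h, 241 higher and 143 lower, and 411 at 6 h, 314 higher and 97 lower, so that the balance at 1 h turned, and at 24 h itself 850 genes were higher and 1243 lower. Sdf2l1, a chaperone cofactor of the endoplasmic reticulum, had changes of 0.01 ± 0.08 at 1 h and 0.00 ± 0.08 at 6 h but -1.01 at 24 h, and the differences were 1.02 ± 0.15 and 1.01 ± 0.15. The other genes by the same rule were Slc35b4, Ppa1, Tmem97, Tmx2, Eif4b, Nme1 and Slc39a11, whose changes at 1 h and 6 h lay between -0.20 and 0.06. Of the 36 ribosome biogenesis genes, the difference was called for Gar1 between 1 h and 24 h and for Dkc1, the pseudouridine synthase of the same particles, between 6 h and 24 h, both lower at the earlier time, and both were also called without rat 7M78, as was Nhp2 with a higher value at 1 h. Of the 20 cholesterol genes, Insig1, Pmvk and Dhcr7 were called between 6 h and 24 h, all higher at 6 h, and 7 were called without rat 7M78. The most calls of any process list were those of the unfolded protein response, 11 of 19 genes at 1 h and 8 of 19 at 6 h, all with a higher value than at 24 h, where 13 were called lower, and without rat 7M78 13 and 12 genes differed. Of 29 immediate early genes, 5 were called at 1 h and 2 at 6 h, all with a lower value than at 24 h. With other TEM vehicle rats at 24 h left out, 229 to 274 genes differed at 1 h without rats 7M83, 7M84 or 7M77 and 208 at 6 h without rat 7M77.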

How the data were processed

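The deposited values were log2 signals of 31099 probe sets, which the authors made from the scanned arrays by RMA (background correction, quantile normalization and median polish); the version was not given in the sources used here. They were used without further transformation. Symbols came from the platform annotation: 20832 probe sets had 1 symbol, 436 had several and 9831 were not listed, and symbols were renewed through the Entrez gene ID. Where a gene had several probe sets, the brightest over the livers was used, which left 14218 genes. Limma 3.58.1 in R 4.3.3 was fitted to 64 livers with 16 group means and a term for the array set at each time (46 residual degrees of freedom), and to 96 livers for comparisons with 24 h. The array set parts the rats of a group, 2 and 2, by the plate numbers in the array names. Per the methods, rats of each group were dosed on different days, and the array sets may stand for these days, which the sources used here do not tie to rats; the place on a plate follows the treatment group, so these cannot be told apart. p-values were adjusted by Benjamini-Hochberg. There were 7 comparisons. Scripts were tested on simulated data. There is no read depth on arrays; precision is set by how many rats there were. Of 714 genes in 35 lists, 622 were measured.

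The members and lists were chosen with earlier results of these data known. Named genes were, at 1 h and 6 h, up to 12 called genes with the largest rise and 12 with the largest fall, up to 4 called genes of each list, Fkbp1a and Mtor, and, with fewer than 10 called, those with the smallest p up to 10; for the F tests and the comparisons with 24 h, up to 6 called genes by p. List members that were not called were chosen after their values were seen. Alternatives were a minimum mean log2 of 6, renewed quantile normalization, no array-set terms, omission of each rat, a trend with robust moderation, every probe set by itself, only rats with oral vehicles or with oral drugs, a single time, all 96 livers, a single array set, and omission of rats 7M78 and 4M48. Omission of the 5 livers with the largest residual spread was chosen after seeing the data, as was omission of 7M78 for the list values at 24 h.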

Additional observations from a re-analysis of the deposited data

Results flagged for a closer look

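A liver stood apart from the other 3 of its group in 12 of the 144 groups of values examined, where chance gives about 1 in 20. The mean level of the aminoacyl-tRNA synthetase genes was low in TEM vehicle rat 1M4 (water, 6 h) at 10.11. The mean level of the nucleotide and one-carbon genes was high in TEM vehicle rat 2M22 (F68/PG/PEG400, 6 h) at 9.273 and low in TEM vehicle rat 8M87 (sorafenib, 6 h) at 9.118. The mean level of the cholesterol genes was low in TEM vehicle rat 7M76 (sunitinib, 6 h) at 10.08. Errfi1 was low in temsirolimus rat 3M28 (water, 6 h) at 13.42 and in TEM vehicle rat 1M3 (water, 6 h) at 13.06. Apex1 was high in temsirolimus rat 5M51 (sunitinib, 6 h) at 10.07. Mrpl49 was high in temsirolimus rats 6M69 (sorafenib, 6 h) at 8.841 and 3M28 (water, 6 h) at 9.052, and in TEM vehicle rat 8M94 (sorafenib, 6 h) at 9.148. Atp6v1e1 was high in TEM vehicle rat 8M94 at 10.4 and low in TEM vehicle rat 1M4 at 10.18.

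The temsirolimus change at 6 h differed between second agents for Angpt2 (limma F test, adjusted p = 0.0159) and Ugp2 (limma F test, adjusted p = 0.0472). The change at 1 h differed from that at 24 h for 147 genes. The change at 1 h minus that at 24 h was 0.455 for Slc35b4, a nucleotide sugar transporter, 0.473 for Ppa1, an inorganic pyrophosphatase, 0.589 for Tmem97, the sigma-2 receptor, 0.496 for Tmx2, a membrane protein of the thioredoxin family, and 1.02 for Sdf2l1. It was -0.543 for the translation factor Eif4b. The change at 6 h differed from that at 24 h for 116 genes. The change at 6 h minus that at 24 h was 0.397 for Slc35b4, 0.76 for Nme1, a nucleoside diphosphate kinase, 1.013 for Sdf2l1, 0.521 for Slc39a11, a zinc transporter, 0.456 for Tmx2 and 0.531 for Tmem97.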

How the results depend on the processing

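At 1 h limma called 0 genes under every alternative tried, and the F test at 1 h called 0 to 3 with a rat left out (3 without 6M68). At 6 h the 10 calls became 21 after renewed quantile normalization (all 10 kept), 1 in the fit of 96 livers (Apex1), 1 in rats with oral vehicles (Cox5a, none of the 10), 0 in rats with oral drugs, 0 in array set 1, 105 in array set 2 (3 of the 10 among them), 0 with the 32 livers alone (1177 at an unadjusted p under 0.05) and 16 without the 5 livers of largest spread (6 of the 10 kept). Most of these fits held fewer livers, that of array set 2 among them. The cause of the changed counts was not tested. With 1 rat left out the count ran from 1 to 74: 1 without 5M57, 6M64 or 7M76, 2 without 8M88, 3M33 or 5M58, 3 without 8M94 or 6M63, 4 without 2M22, 16 without 2M16, 24 without 3M28, 59 without 1M4 and 74 without 7M75. The difference of 6 h and 1 h had 1 call (Rmdn3) after renewed quantile normalization and 0 to 2 with a rat left out (1 without 8M92, 7M82, 5M55 or 8M87, 2 without 3M28 or 4M46). The F test at 6 h had 1 call with every probe set tested and 0 to 3 with a rat left out (0 without 6M64, 7M76, 6M63, 8M88 or 5M52, 1 without 4M45, 5M51, 4M40, 8M94, 3M34, 1M9, 2M15, 3M27, 7M81, 7M75, 2M21, 4M46, 8M93, 8M87, 3M33, 5M58 or 1M3). The comparison of 1 h with 24 h had 373 calls after renewed quantile normalization, 382 without rats 7M78 and 4M48, and 110 to 384 with a rat left out; that of 6 h with 24 h had 360, 421 and 86 to 411. Renewed normalization gave 197 of 373 and 222 of 360 calls higher at the early time, and without rats 7M78 and 4M48 256 of 382 and 332 of 421 were.

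Fkbp1a changed sign at 1 h with oral vehicles (0.0024) and at 6 h with oral vehicles (-0.0398) and in array set 2 (-0.1103), and Mtor at 1 h with oral drugs (-0.0634) and in array set 1 (-0.0412) and at 6 h in array set 2 (-0.015). With a rat left out Fkbp1a lay between -0.0315 and 0.002 at 1 h and between -0.0246 and 0.0239 at 6 h. The list medians kept their sign with each rat left out: ribosome biogenesis lay between -0.1014 and -0.0666 at 1 h and between -0.1563 and -0.1059 at 6 h, the synthetases between -0.1171 and -0.071 and between -0.15 and -0.1071, and cholesterol between -0.0983 and -0.0634 and between 0.1052 and 0.2646. No paired analysis was possible because the replicate numbers only follow the order of the samples. Tests of single genes with 16 rats a side had a median SE of 0.0467 on the log2 scale. Dim probe sets were not marked as such; of the called genes Satb1 has a mean log2 signal under 6.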
